A study of Mus musculus with 4 samples.

Results

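The genes described here encode the contractile apparatus of smooth muscle and its counterparts in other cells: actins, myosin chains, tropomyosins, calponins, transgelins and proteins that bind or anchor actin filaments. A list of 37 such genes was matched to the array features by the platform's gene symbol, and features of 1 gene with a value on all 4 arrays were averaged. Of the 37 listed genes, 36 could be tested, out of 14222 genes tested in all, and only Myocd had no feature with a value on every array. The arrays compared total RNA of an Mll1-/- line with that of a wild-type line of mouse embryonic fibroblasts (MEFs), both grown in the same medium with serum. MLL1, encoded by Kmt2a, is a methyltransferase of lysine 4 of histone H3 that acts at promoters. Both genotypes were on each of the 4 two-colour Agilent arrays, with Mll1-/- RNA in Cy5 on arrays 1 and 3 and in Cy3 on arrays 2 and 4. No other treatment, allele or time point was part of the comparison.

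Smooth muscle cells shorten when myosin pulls on actin filaments, and the switch is phosphorylation of the myosin regulatory light chain by myosin light chain kinase. Fibroblasts use the same machinery in stress fibres, mostly built from widely expressed forms of each protein, and take up smooth muscle forms such as alpha smooth muscle actin when they turn into myofibroblasts. Many of the smooth muscle genes are transcribed under serum response factor (SRF), which binds a short sequence called the CArG box together with myocardin or with the myocardin-related factors MRTF-A and MRTF-B. The MRTFs are held in the cytoplasm by unpolymerised actin, which ties this gene programme to the state of the actin filaments.

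Every value below is a log2 ratio, most likely of Mll1-/- over wild type, and 0 means equal signal. The sources used here do not state the direction. It was taken from the array titles, which name the mutant first, and from Kmt2a, the targeted gene, which had log2 ratios of −1.61, −1.58, −1.01 and −0.78 on arrays 1 to 4 when read that way (mean −1.24 ± 0.42, SD, n = 4; limma adjusted p = 0.0138). If the ratio runs the other way, every rise below is a fall and every fall a rise. Kmt2a was measured by 1 feature with a value on all arrays. Which exons the allele lacks is not given, so this feature checks neither the labels nor the direction independently. Genotype and cell line cannot be told apart, since each genotype is 1 line. Whether the 4 hybridisations drew on separate cultures is not recorded in the labels, and the p-values therefore reflect only the spread between arrays, which may be technical. Ratios carry no level: whether a gene is abundant or barely detected in either line, and whether the lines carry defining markers of fibroblasts, cannot be read from them. Fewer cells that express a gene and less of its RNA per cell cannot be told apart either.

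Between 31603 and 37425 of the 45018 features held a value on an array, and 29054 held one on all 4. Array medians over all features lay between −0.02 and 0.03. Arrays of the same dye orientation correlated across features at r = 0.83 and 0.85, and those of opposite orientation at 0.72 to 0.78. Over all genes tested, 4140 were higher and 4275 lower in Mll1-/- MEFs at a limma adjusted p of 0.05, so a call by itself was common in these data.

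The contractile genes were mostly higher in Mll1-/- MEFs than in wild-type MEFs. They were chosen with earlier results of these data known, so the comparisons with all genes describe these genes and test no enrichment. Of the 36 tested, 27 were called higher, 3 lower (Des, Csrp2 and Pdlim1) and 6 neither way, while 29.1% of all genes were called higher and 30.1% lower. At least 2-fold higher were 12 of the 36, against 6.3% of all genes, and none was at least 2-fold lower. The median log2 ratio of the 36 was 0.87, against −0.0007 over all genes, and the medians on arrays 1 to 4 were 0.84, 0.88, 0.81 and 0.80. The shift was thus of nearly equal size on each array and in both dye orientations. Ratios of 32 of the 36 had 1 sign on all 4 arrays, compared with 9463 of the 14222 genes. The spread between arrays was ordinary, with a median SD of 0.15 for the contractile genes and 0.17 over all genes.

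**Figure D1:**
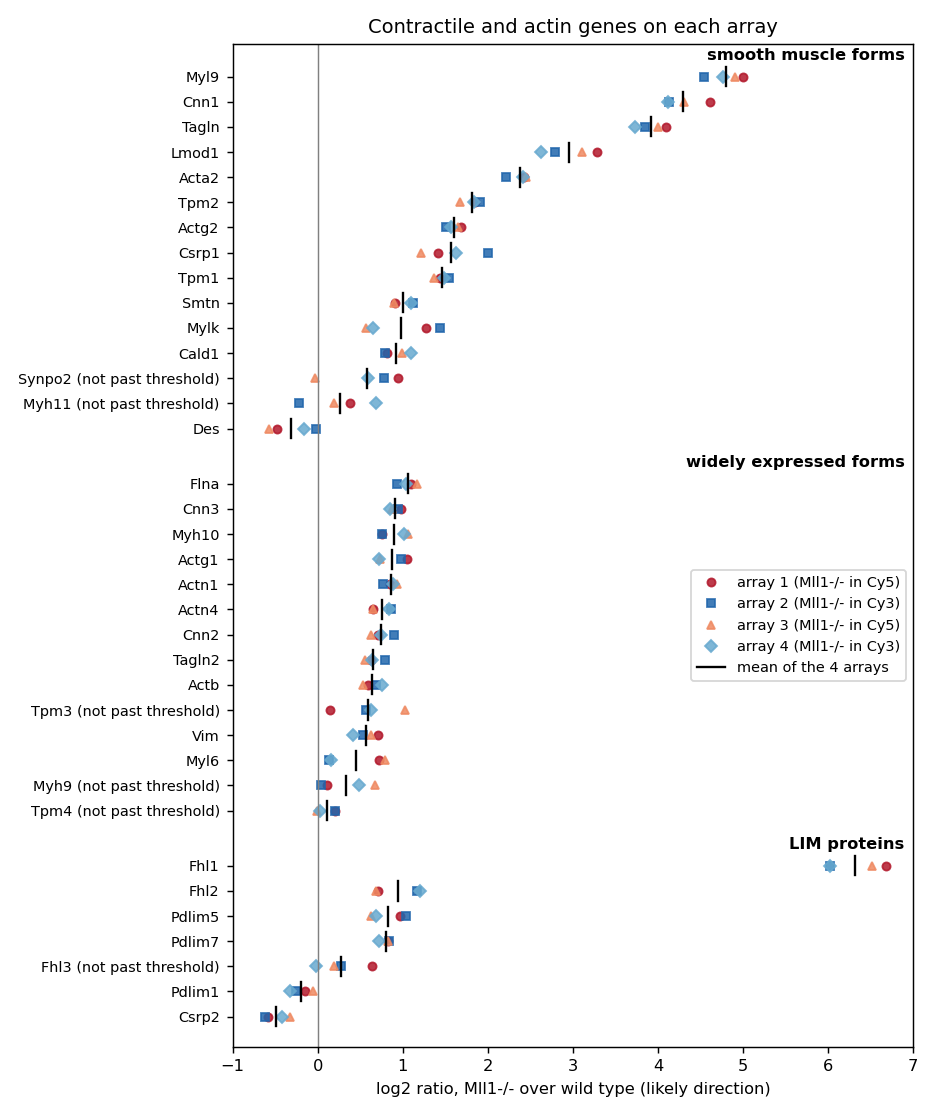
Log2 ratio of Mll1-/- over wild type (x axis, likely direction) for each of the 36 tested contractile and actin genes (rows), with 1 point per array, coloured by dye orientation, and a bar at the mean of the 4 arrays; Csrp1 is drawn with the smooth muscle forms. The smooth muscle forms reach from −0.31 (Des) to 4.80 (Myl9), the widely expressed forms stay between 0.11 (Tpm4) and 1.06 (Flna), and Fhl1 lies at 6.31.

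The smooth muscle forms had a larger median ratio than the widely expressed ones, while both groups were mostly higher. These groups are lists of genes, likewise chosen with earlier results of these data known. A gene's ratio does not separate its muscle transcripts from any others. Of 15 smooth muscle forms, 12 were higher and 10 of these at least 2-fold, with a median log2 ratio of 1.57. Of 14 widely expressed forms, 11 were higher but only Flna was at least 2-fold, with a median of 0.70. Of the 8 LIM-domain proteins, with Csrp1 included here as well as among the smooth muscle forms, 5 were higher and 2 lower, with a median of 0.81. Adjusted p-values of the 12 genes that rose at least 2-fold lay between 0.000426 and 0.00186 (limma).

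**Figure D2:**
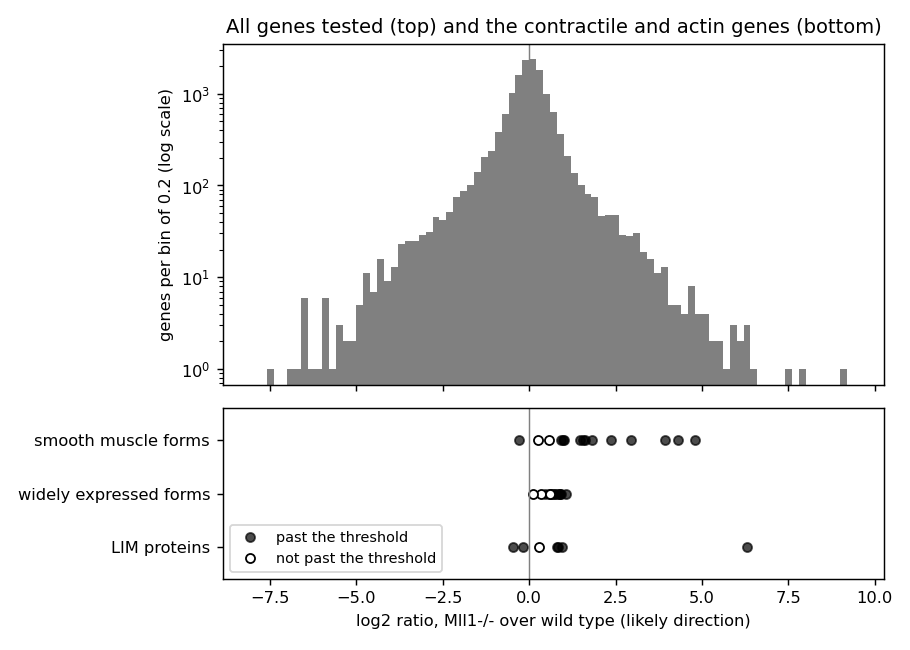
Top, number of genes per bin of log2 ratio of Mll1-/- over wild type for all 14222 genes tested (log-scaled count axis). Bottom, mean log2 ratio of each contractile gene on the same x axis by group, filled where it passed the limma threshold and open where it did not; most lie right of 0, while the median of all genes is at −0.0007.

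Promoter sequences of the genes that hold a CArG box are shown because this sequence is the textbook link between SRF and contractile genes. They come from RefSeq (build GRCm38.p6), span 250 bases before to 50 bases after the annotated start, are written 5′ to 3′ on the gene's strand and carry the CArG box in capitals. For Myl9 and Fhl1, the members with the highest ratios, the whole window that holds the box is given, and for the others the box with 25 bases on each side.
Myl9, chr2:156775214-156775513, plus strand: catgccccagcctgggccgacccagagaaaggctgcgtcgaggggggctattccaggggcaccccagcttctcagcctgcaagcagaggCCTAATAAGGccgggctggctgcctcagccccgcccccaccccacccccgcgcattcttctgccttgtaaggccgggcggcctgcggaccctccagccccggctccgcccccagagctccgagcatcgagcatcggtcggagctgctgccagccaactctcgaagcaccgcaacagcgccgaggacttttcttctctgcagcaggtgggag
Fhl1, chrX:56779433-56779732, plus strand: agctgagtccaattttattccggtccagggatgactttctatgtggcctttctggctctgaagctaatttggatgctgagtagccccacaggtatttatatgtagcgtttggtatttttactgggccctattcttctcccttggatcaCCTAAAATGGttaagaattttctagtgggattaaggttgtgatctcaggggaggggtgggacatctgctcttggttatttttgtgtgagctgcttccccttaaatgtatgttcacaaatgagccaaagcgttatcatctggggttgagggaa
Fhl2, chr1:43163958-43164017, minus strand: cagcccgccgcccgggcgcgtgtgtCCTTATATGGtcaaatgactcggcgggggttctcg
Fhl2, chr1:43196823-43196882, minus strand: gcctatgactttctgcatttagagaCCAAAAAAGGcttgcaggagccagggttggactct
Cnn2, chr10:79988519-79988578, plus strand: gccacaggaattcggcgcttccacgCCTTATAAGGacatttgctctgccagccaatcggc
Actg1, chr11:120348551-120348610, minus strand: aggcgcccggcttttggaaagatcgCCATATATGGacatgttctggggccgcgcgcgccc
Myl6, chr10:128493025-128493084, minus strand: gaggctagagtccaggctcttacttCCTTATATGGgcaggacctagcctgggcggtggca
The CArG box was searched in its strict form, CC and GG around 6 letters that are each A or T, on both strands with no mismatch. Of the 37 genes, 31 had a promoter in the table, in 38 windows (Actg2, Actb, Tagln, Myh11, Myocd and Csrp2 were not matched). A box was present for 6 of the 31 genes (19.4%), against 488 of 27025 genes (1.81%) and 535 of 32851 windows (1.63%) in the whole table. Counted from the box's first base to the start, the distance was 161 bases for Myl9, 102 for Fhl1, 96 and 31 for the alternative starts of Fhl2, 90 for Actg1, 56 for Cnn2 and 50 for Myl6. Fhl1 and Myl6 each had a further window without a box, and which start these lines use was not tested. The letters TATAAA, which can overlap the box, were found on either strand for 7 of the 31 genes (22.6%) and for 15.7% of all genes. These matches are descriptions of letters, and binding was not measured here.

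The ratios of genes with and without a box overlapped. The 6 genes with a box had log2 ratios from 0.45 to 6.31 with a median of 0.91, and all 6 were called higher. The 25 tested genes without one had ratios from −0.31 to 4.29 with a median of 0.86, and 18 were called higher. Both Myl9 and Fhl1 lie in the first set, but Myl6, which also holds a box, had the smallest ratio of its set. Cnn1, Lmod1 and Acta2 were among the highest members and hold no strict box in this window.

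Among the actins, the smooth muscle forms rose more than the cytoplasmic ones. Acta2, alpha smooth muscle actin of vascular muscle and myofibroblasts, had log2 ratios of 2.43, 2.22, 2.45 and 2.41 on arrays 1 to 4. It was 5.20-fold higher in Mll1-/- MEFs (2.38 ± 0.11, SD, n = 4; limma adjusted p = 0.000523). The arrays differed by little and no dye orientation stood apart. Each of its 13 features with a value on all arrays was called higher, with means from 1.48 to 3.27. Most of the 13 are annotated to the same transcript, and whether they are copies of the same probe was not checked. A further feature, blank on array 3, had 2.63, 1.49 and 0.40 on arrays 1, 2 and 4. Actg2, gamma smooth muscle actin of the gut and bladder wall, had 1.69, 1.51, 1.65 and 1.57 and was 3.05-fold higher (1.61 ± 0.08; adjusted p = 0.000552). Actb, the cytoplasmic beta-actin often taken as a constant gene, had 0.60, 0.69, 0.53 and 0.75 and was 1.56-fold higher (0.64 ± 0.10; adjusted p = 0.00212). Its 10 features, all annotated to the same transcript, lay between 0.61 and 0.67. Whether they are copies of the same probe was not checked. Actg1, cytoplasmic gamma-actin, had 1.05, 0.98, 0.73 and 0.72 (0.87 ± 0.17; adjusted p = 0.00519).

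Actin genes are nearly identical in their coding sequence. The skeletal and cardiac alpha-actins, which are not members of the list, had ratios close to that of Acta2: Acta1 averaged 2.49 ± 0.15 and Actc1, named after its value was seen, 2.45 ± 0.18 (SD, n = 4 each). Whether the probes tell the alpha-actins apart was not tested.

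Transgelin and calponin 1 gave some of the highest ratios. Tagln, transgelin or SM22-alpha, an early marker of smooth muscle, had log2 ratios of 4.09, 3.85, 4.00 and 3.73 and was 15.1-fold higher in Mll1-/- MEFs (3.92 ± 0.16; limma adjusted p = 0.000426). Its 2 features averaged 3.53 and 4.30. Cnn1, the calponin of differentiated smooth muscle that restrains actin-activated myosin, had 4.62, 4.13, 4.30 and 4.12 and was 19.6-fold higher (4.29 ± 0.23; adjusted p = 0.000426). All 4 arrays put both genes far above 0. Their widely expressed relatives rose by less: Tagln2 by 0.65 ± 0.10, Cnn2 by 0.75 ± 0.11 and Cnn3 by 0.91 ± 0.06, each with the same sign on all arrays.

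The myosin genes moved unequally. Myl9, the regulatory light chain whose phosphorylation switches contraction on, had log2 ratios of 5.0, 4.54, 4.90 and 4.76 and was 27.9-fold higher in Mll1-/- MEFs (4.80 ± 0.20; limma adjusted p = 0.000426). It ranked 25th from the top among all genes tested. Myh11, the heavy chain specific to smooth muscle, had 0.39, −0.22, 0.19 and 0.69 and did not pass the test (0.26 ± 0.38; adjusted p = 0.292). Its ratios lay on both sides of 0, whereas those of the light chain were far above it on every array. Without array 2, the only one below 0, Myh11 averaged 0.49 and was called higher (adjusted p = 0.0404), and without array 4 it averaged 0.04. Of the nonmuscle heavy chains, Myh10 rose by 0.90 ± 0.17 (adjusted p = 0.00456) and Myh9 had 0.11, 0.04, 0.68 and 0.48, which did not pass (0.33 ± 0.30; adjusted p = 0.132). For Myh9, arrays 3 and 4 gave the larger values, and it averaged 0.19 without array 3 and 0.22 without array 4. It was called higher where arrays were averaged in the pairs 1 with 4 and 2 with 3 (adjusted p = 0.0146).

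Myl6, the essential light chain shared by smooth and nonmuscle myosin, was called higher (0.45 ± 0.36; limma adjusted p = 0.00365), but its ratios of 0.72, 0.13, 0.79 and 0.16 followed the dyes. It averaged 0.76 with Mll1-/- RNA in Cy5 and 0.14 with it in Cy3, and the call ended without the dye term (adjusted p = 0.0537). Mylk, the kinase that phosphorylates the regulatory light chain, had 1.27, 1.44, 0.57 and 0.65 and passed the test (0.98 ± 0.43; adjusted p = 0.0264). Its 2 complete features disagreed in size, at 0.57 (not called by itself) and 1.39. A further feature with values on 3 arrays was below 0 on each of them (−0.82, −0.65 and −1.35), and the gene's ratio was 0.47 and no longer called where that feature entered the mean. The Mylk call also ended without array 1 or array 2 and with arrays 1 and 2, and 3 and 4, averaged (highest adjusted p over the alternatives 0.0849).

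**Figure D3:**
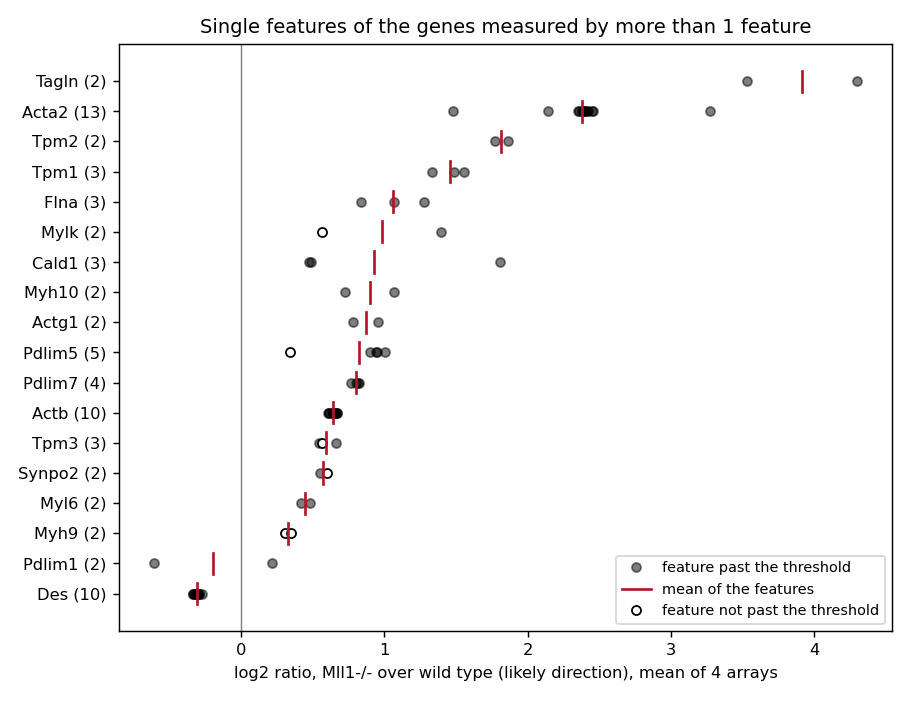
Mean log2 ratio over the 4 arrays of Mll1-/- over wild type (x axis) for single features (points, filled where past the threshold and open where not). Shown are the genes with more than 1 feature that held a value on all 4 arrays. A red bar marks the gene's mean, and the number of such features is in parentheses. Features blank on any array are not drawn, among them the Mylk feature below 0. The features of Actb and Des lie close together, those of Cald1 and Acta2 spread widely, and the 2 features of Pdlim1 lie on opposite sides of 0.

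Tropomyosins, which lie along the actin filament and gate myosin's access to it, also divided by form. Tpm2, enriched in muscle, had log2 ratios of 1.85, 1.91, 1.67 and 1.84 and was 3.53-fold higher in Mll1-/- MEFs (1.82 ± 0.10; limma adjusted p = 0.000698). Tpm1, whose transcripts include muscle isoforms, had 1.43, 1.54, 1.37 and 1.48 and was 2.75-fold higher (1.46 ± 0.07; adjusted p = 0.000644). On every array both lay above Tpm3 and Tpm4. Tpm3 had 0.15, 0.57, 1.02 and 0.63 and narrowly missed the threshold (0.59 ± 0.36; adjusted p = 0.0575). Of its features, 2 were called higher by themselves (0.66 and 0.55), while the other averaged 0.57 ± 1.28. Tpm3 was called higher under 6 alternatives, among them without array 1 (0.81) or array 3 (0.37). Tpm4 had 0.20, 0.20, −0.01 and 0.03 and did not pass the test (0.11 ± 0.11; adjusted p = 0.222). It averaged 0.06 without array 1 and 0.07 without array 2, and was called higher where arrays were averaged in the pairs 1 with 4 and 2 with 3 (adjusted p = 0.0444).

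Further proteins of the thin filament and dense bodies rose. Lmod1, leiomodin of smooth muscle, which nucleates actin filaments, had log2 ratios of 3.29, 2.79, 3.11 and 2.63 and was 7.75-fold higher in Mll1-/- MEFs (2.95 ± 0.30; limma adjusted p = 0.000469). Its ratios were higher on both arrays with Mll1-/- RNA in Cy5 (mean 3.20) than on both with it in Cy3 (2.71). Smtn, smoothelin of contractile smooth muscle, rose by 1.01 ± 0.12 (adjusted p = 0.00096). Cald1, caldesmon, which inhibits actomyosin, rose by 0.93 ± 0.15 (adjusted p = 0.0035), yet its features averaged 0.47, 0.49 and 1.81. With only the features of a RefSeq NM accession the Cald1 ratio was 0.48 (adjusted p = 0.0134), so its size rested on the feature of the remaining clone. Synpo2, an actin-bundling protein of the muscle Z-disc, had 0.95, 0.78, −0.02 and 0.60 and did not pass the test (0.58 ± 0.43; adjusted p = 0.0791). Without array 3 it averaged 0.82 and was called higher (adjusted p = 0.0186), and without array 1 it averaged 0.33. Synpo2 was also called higher in the fit that had no dye term (adjusted p = 0.0425). Its features disagreed from array to array. A clone's feature had 0.12, 1.12, −0.30 and 1.27 and was called higher by itself (limma adjusted p = 0.0158). The NM feature had 1.78, 0.44, 0.26 and −0.07 and was not called (adjusted p = 0.184).

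Filament crosslinkers rose, and the intermediate filament genes went in opposite directions. Flna, the crosslinker filamin A, had log2 ratios of 1.10, 0.94, 1.17 and 1.04 and was 2.09-fold higher in Mll1-/- MEFs (1.06 ± 0.10; limma adjusted p = 0.00115). The alpha-actinins of stress fibres and focal adhesions, Actn1 and Actn4, rose by 0.86 ± 0.07 and 0.75 ± 0.11. Vim, the vimentin of mesenchymal cells, rose by 0.57 ± 0.13 (adjusted p = 0.00322), or by 0.35 where an incomplete feature entered its mean. Des, the intermediate filament protein desmin of muscle, was lower, with −0.48, −0.02, −0.57 and −0.16 (−0.31 ± 0.26; adjusted p = 0.0133). Its 10 features lay between −0.34 and −0.27, but the ratio averaged −0.53 with Mll1-/- RNA in Cy5 and −0.09 with it in Cy3. Array 2 placed the gene at nearly 0. The Des call ended under 6 of the alternatives, among them no dye term and leaving out array 1, 3 or 4 (highest adjusted p 0.0757).

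The LIM-domain proteins, scaffolds that join actin filaments to signalling proteins and transcription factors, held the highest member and also 2 of the 3 that fell. Fhl1, a four-and-a-half LIM protein abundant in striated muscle, had log2 ratios of 6.68, 6.02, 6.51 and 6.02 and was 79.4-fold higher in Mll1-/- MEFs (6.31 ± 0.34; limma adjusted p = 0.000426). It was measured by 1 feature, as were Myl9, Cnn1 and Lmod1, and ranked 6th of the 14222 genes. Its value was larger with Mll1-/- RNA in Cy5 (6.60) than in Cy3 (6.02), a small gap beside the ratio. Fhl2, a coactivator abundant in heart, was 1.92-fold higher (0.94 ± 0.29; adjusted p = 0.00107), and its gap ran the other way, with 0.70 for Cy5 and 1.19 for Cy3. Fhl3 had 0.64, 0.28, 0.20 and −0.02 and did not pass the test (0.27 ± 0.28; adjusted p = 0.112). It averaged 0.16 without array 1 and 0.07 where an incomplete feature entered its mean, and it was called higher where arrays were averaged in the pairs 1 with 4 and 2 with 3 (adjusted p = 0.022).

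Csrp1, the cysteine-rich LIM protein of smooth muscle, had log2 ratios of 1.42, 2.0, 1.22 and 1.63 and was 2.96-fold higher in Mll1-/- MEFs (1.57 ± 0.33; limma adjusted p = 0.00186). Its relative Csrp2, known from vascular smooth muscle, was lower with −0.58, −0.61, −0.33 and −0.42 (−0.48 ± 0.14; adjusted p = 0.0116), a call that ended without array 2 (adjusted p = 0.0570). Thus these relatives lay on opposite sides of 0 on every array. Among the PDZ-LIM proteins, which bind alpha-actinin, Pdlim5 rose by 0.83 ± 0.21 and Pdlim7 by 0.80 ± 0.05. Pdlim1 was called lower at −0.19 ± 0.12 (adjusted p = 0.0278), but its features were called in opposite directions, at −0.60 for an AK-numbered clone and 0.22 for the RefSeq transcript. It was the only member with opposite calls, and its call ended without any 1 array and under 3 other alternatives. Where only features with a RefSeq NM accession were used, its ratio was 0.22 and it was called higher (adjusted p = 0.0107).

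Single features were also counted, although the gene means are averages of these same features. The members had 102 features, of which 90 held a value on all arrays, 12 were blank on some array and 3 of those on all. By themselves 69 features were called higher, against 29.9% of all singly named features, and 12 lower, against 29.7%. Acta2 gave 13 of the higher features and Actb 10. Of the 12 lower features 10 belonged to Des and the others to Csrp2 and Pdlim1. Features of the same gene are not independent measurements, so these counts weigh such genes more. The dye term had an unadjusted p under 0.05 in 5 of the 36 members (13.9%; Myl6, Lmod1, Des, Fhl1 and Fhl2) and in 14.8% of all genes (limma), and in none of the members after adjustment. Myocd, the myocardin that drives the smooth muscle programme with SRF, had 3 features: 1 with values of 4.68 and 0.55 on arrays 2 and 4, another with 3.28 and 0.94 on arrays 3 and 4, and the last blank throughout. No test was made of Myocd.

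Relatives were also set against each other within each array, in 13 pairs. The smooth muscle form lay above its widely expressed relative on all 4 arrays in each pair of actins, transgelins, calponins and tropomyosins. Myl9 also lay above Myl6 on all 4 arrays, but these are a regulatory and an essential light chain, not 2 forms of the same chain. The largest of these differences in log2 ratio were 4.35 ± 0.21 for Myl9 minus Myl6, 3.54 ± 0.30 for Cnn1 minus Cnn2, 3.38 ± 0.20 for Cnn1 minus Cnn3 and 3.26 ± 0.22 for Tagln minus Tagln2 (SD, n = 4 arrays each). Thus calponin 1 and transgelin outran relatives that themselves were higher. The actin pairs differed by 1.74 ± 0.17 (Acta2 minus Actb), 1.51 ± 0.24 (Acta2 minus Actg1) and 0.96 ± 0.16 (Actg2 minus Actb). Tpm2 minus Tpm4 was 1.71 ± 0.07 and Tpm1 minus Tpm3 0.87 ± 0.39. The LIM pairs, whose genes are all known from muscle, differed as well, by 5.37 ± 0.62 for Fhl1 minus Fhl2 and 2.05 ± 0.44 for Csrp1 minus Csrp2, with the first gene above on all 4 arrays. The intermediate filament pair ran the other way on all 4 arrays, with Des minus Vim at −0.88 ± 0.36. Myh11 minus Myh9 had no stable sign (−0.07 ± 0.37, from −0.48 to 0.27; exact sign-flip permutation p = 0.75). For each of the other 12 pairs the two-sided exact sign-flip p was 0.125, the smallest that 4 arrays can give (0.135 adjusted over the 13 pairs), so this test cannot pass 0.05 here.

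**Figure D4:**
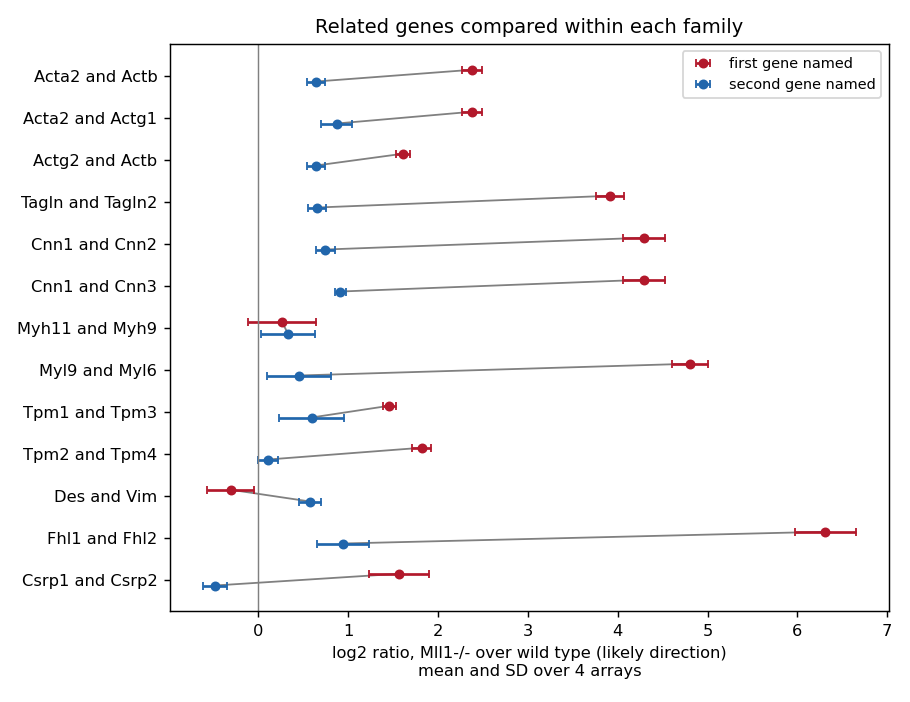
Mean log2 ratio of Mll1-/- over wild type (x axis, error bars SD over 4 arrays) of both genes of each of the 13 pairs (rows), with the first gene named in red and the second in blue, joined by a line. The first gene lies right of the second in 11 pairs and left of it for Des and Vim (difference −0.88), and the error bars of Myh11 and Myh9 overlap (difference −0.07).

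Other markers of smooth muscle and mural cells differed in both directions. Of 25 tested, 11 were higher and 7 of these at least 2-fold. Of the same 25, 7 were lower and 4 of these at least 2-fold, and the median log2 ratio was 0.17. Over all genes, 29.1% were called higher and 30.1% lower. Of the 14222, 896 were at least 2-fold higher and 1147 at least 2-fold lower. Ppp1r14a, the phosphatase inhibitor CPI-17 that keeps the light chain phosphorylated, rose 11.9-fold (3.57 ± 0.75; limma adjusted p = 0.00101). Hspb6, a small heat shock protein of smooth muscle, rose 2.94-fold and Itga8, an integrin of smooth muscle named after its value was seen, by 1.47 ± 0.25. The largest falls of the list were Rgs5 and Aoc3. Notch3, a receptor of mural cells likewise named after its value was seen, was lower by 1.91 on the log2 scale, and the amine oxidase gene Aoc3 by 2.04. The pericyte marker Rgs5 was lower with widely scattered ratios of −4.28, −3.36, −7.28 and −1.45 (−4.09 ± 2.43; adjusted p = 0.0158), and its call ended with arrays averaged in the pairs 1 with 4 and 2 with 3, and also without array 2 (adjusted p = 0.0621).

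Mean ratios of Srf and both MRTF genes were nearer to 0 than the contractile genes' median. On arrays 1 and 2, however, Mrtfb lay above the contractile genes' medians of 0.84 and 0.88. Srf had log2 ratios of 0.32, 0.08, 0.09 and −0.14 and did not pass the test (0.09 ± 0.19; limma adjusted p = 0.361). Mrtfa had −0.62, −0.11, −0.50 and −0.05 and was called lower (−0.32 ± 0.28; adjusted p = 0.01), and Mrtfb had 0.93, 0.97, 0.36 and 0.33 and was called higher (0.65 ± 0.35; adjusted p = 0.043). Both calls were fragile: that of Mrtfa ended under 6 alternatives, among them without array 1, 2 or 4, and that of Mrtfb under 8, among them without any 1 array, with adjusted p-values up to 0.0806 and 0.123. With NM features only, Mrtfa was at −0.18. Of 13 tested genes for SRF cofactors and other regulators of smooth muscle transcription, 4 were higher and 4 lower with a median of 0.27. These counts were near the shares over all genes, 29.1% higher and 30.1% lower. Tead1, a TEA-domain factor, rose by 0.85 ± 0.01 and Mef2d by 0.67 ± 0.04 (1.2 with NM features only), while the homeobox gene Prrx1 fell by 2.17 and Gata6 by 1.68 on the log2 scale.

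Genes of actin turnover had a median of 0.23, and 19 of 35 tested were higher and 6 lower. Over all genes, 29.1% were called higher and 30.1% lower. Tmsb4x, thymosin beta-4, which binds actin monomers, rose 4.67-fold (2.22 ± 0.27; limma adjusted p = 0.000426), and Vasp, which extends filaments, 2.31-fold (1.21 ± 0.34). Its relative Enah was lower at −1.41 ± 0.27, and the membrane-skeleton adducin gene Add3 at −0.65 ± 0.24, a call that ended without array 3 (adjusted p = 0.0519). Among 12 other tested myosins 2 were higher and 4 lower, with a median of −0.14. Myh14, another nonmuscle heavy chain, rose by 2.21 ± 0.19 (1.95 and not called where incomplete features entered its mean) and Myo1e by 0.78 ± 0.07. The unconventional myosin Myo5a was lower at −0.70 ± 0.17 and Myo6 at −0.53 ± 0.27, and the Myo6 call ended without array 2 or array 3 (adjusted p = 0.0521 and 0.0598).

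**Figure D5:**
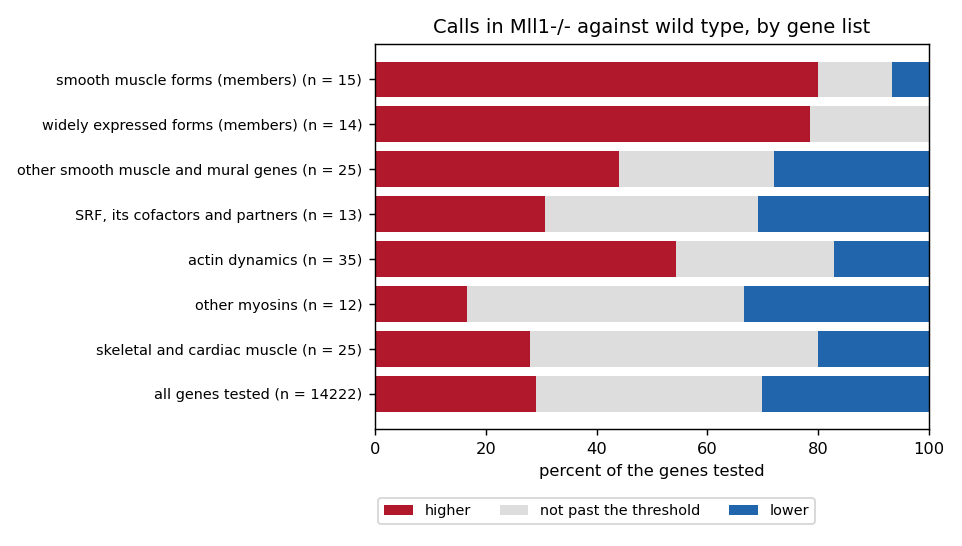
Percent of the tested genes of each list (rows, n tested in parentheses) that were higher in Mll1-/- than in wild-type MEFs, did not pass the limma threshold, or were lower. The smooth muscle forms (12 of 15) and widely expressed forms (11 of 14) are mostly higher, and all genes tested, in the bottom row, are 29.1% higher and 30.1% lower.

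Markers of other cell types were counted beside these values, and their part in the contractile genes' ratios was not tested. The shares over all genes, 29.1% higher and 30.1% lower, are the background for these counts. Of 25 tested skeletal and cardiac muscle genes, 7 were higher and 5 lower with a median log2 ratio of −0.01. Tnnt2, the cardiac troponin T also seen in some cultured mesenchymal cells, rose 9.11-fold (3.19 ± 0.29; limma adjusted p = 0.000426) and Acta1 5.63-fold, whereas troponin C, Tnnc1, was lower at −1.73 ± 0.20 and the atrial light chain Myl7 at −0.83 ± 0.42, a call lost without array 1 or array 3 (adjusted p = 0.0788 and 0.0900). Of 12 fibroblast markers, 5 were higher and 5 lower, with a median of 0.09. Col3a1, a fibrillar collagen, rose by 2.27 ± 0.53 and S100a4 by 1.04 ± 0.29, while the collagen receptor Ddr2 was lower at −3.53 ± 0.12 and the proteoglycan Dcn at −2.21 ± 0.85, whose call ended without array 4 (−1.89; adjusted p = 0.0634). 

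Few markers of epithelium, endothelium and blood could be tested. The shares over all genes were again 29.1% higher and 30.1% lower. Of 7 epithelial genes 1 was higher (the claudin gene Cldn3, 0.80 ± 0.16) and 1 lower (the keratin gene Krt5, −0.42 ± 0.04), with a median of 0.24. Of 6 endothelial genes the VEGF receptor gene Kdr was higher (1.10 ± 0.20) and 4 were lower, among them Vwf (−1.38 ± 0.25) and Cldn5 (−0.66 ± 0.37, a call that ended under 4 alternatives, among them without array 1 or array 3), with a median of −0.48. Of 6 macrophage and blood genes, the lysozymes Lyz2 (2.27 ± 0.32) and Lyz1 (2.09 ± 0.23) were higher and Cd14 (−3.78 ± 0.12) and Hba-a1 (−1.61 ± 0.24) lower, with a median of 0.70. The lysozyme genes are near copies of each other, so their ratios may not be separate measurements.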

How the data were processed

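Per the labels, total RNA of the MEF lines was hybridised to 4 two-colour Agilent 4x44k arrays, with dyes swapped on 2. Scans were processed in Agilent Feature Extraction 10.1.1, per the submitters' processing notes. The deposited table holds 1 log ratio per feature and array, treated as log2 because its widest value of 14.68 would exceed a scanner's range on another base. How background was corrected and signals normalized is not given in the sources used here. Values on all arrays were kept as the authors deposited them, and blanks were not imputed. No channel signals were used, so signal over background cannot be stated, and precision rests on the number of arrays.

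Of 45018 features, 33653 had 1 gene symbol in the platform annotation, 56 several and 11309 none. Only the first kind was used. Features with a value on all 4 arrays were averaged per gene, leaving 14222 of 19087 genes. Each gene was fitted with limma 3.58.1 in R 4.3.3 (lmFit, eBayes) with a genotype term and a dye term, leaving 2 residual degrees of freedom. The Benjamini-Hochberg adjustment ran over all genes, or over all 24012 features for single features, with a threshold of 0.05, and 2-fold meant an absolute log2 ratio of 1. Errors are SDs over the 4 arrays. The fit was tested on simulated data.

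The members and gene lists were chosen with earlier results of these data known. Lists were matched through RefSeq symbols and synonyms and are described by counts and medians. Another list and the genes named with it are not reported here. Named are all members, Kmt2a, Srf, Mrtfa and Mrtfb, and in each other list up to 2 genes with the largest rise and up to 2 with the largest fall past the threshold. Notch3, Actc1 and Itga8 fall outside this rule and were named after their values were seen. Alternatives were no dye term, centring or scaling arrays, a robust variance prior, the median over features, other treatments of blanks, arrays averaged in pairs or as a random block, each array left out, and NM features only.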

Additional observations from a re-analysis of the deposited data

Results flagged for a closer look

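In 3 of 87 sets of array values checked, 1 array lay far from the other arrays, which were close together. Chance gives such a gap in about 1 in 20 groups. Pdlim7 had a log2 ratio of 0.72 on array 4, against 0.83 to 0.84 on the other arrays. The collagen receptor gene Ddr2 had −3.35 on array 4, against −3.61 to −3.57. The lysozyme gene Lyz1 had 2.44 on array 2, against 1.96 to 1.99. None of these gaps changes the sign of a ratio.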

How the results depend on the processing

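Over 15 alternatives, 26 to 30 contractile genes were called higher (27 as reported) and 10 to 14 at least 2-fold higher (12). Of the 30 genes called either way, 25 kept their call throughout. Of 537 gene and alternative combinations, 503 kept side and sign, 20 lost a call, 13 gained one and 1 reversed: Pdlim1, at 0.22 with NM features only. The 3 lower calls became 1 without the dye term, with arrays 1 and 2, and 3 and 4, averaged or as a random block, and without any 1 array (1 to 1). Under the same 3 settings the smooth muscle forms had 0 lower (1 as reported; 0 to 1 leaving out an array). The members' median was 0.83 with NM features and 0.80 to 0.86 leaving out an array. Without the dye term 3 single features were lower (12). Averaging arrays 1 and 2, and 3 and 4, left 2 SRF cofactors higher and 2 lower (4 each; 2 to 3 both ways leaving out an array), 12 actin turnover genes higher (19; 12 to 13) and 3 skeletal and cardiac genes lower (5; 1 to 5). Skeletal and cardiac genes higher were 3 to 6 leaving out an array (7). SRF cofactors higher were 2 with the mean over the features present on an array, and those lower were 2 without the dye term and with the random block. Other myosins higher were 1 (2) with that mean or with values on at least 3 arrays. Myh11 minus Myh9 turned to 0.0732 without array 3 (−0.18 to 0.0732). The cause of these shifts was not tested, except that an array left out leaves fewer samples. Genes tested ranged from 12683 to 15283. The planned random block beside the dye term could not be fitted with 4 arrays, so the block was run without that term, with a correlation of −0.04. That setting and NM features were chosen after seeing the data. Each ratio already compares the genotypes within 1 array. No paired analysis was possible because the arrays form 1 group, so no replicate numbers are shared between groups.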
